A study of Mus musculus with 6 samples.

Results

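Prostate tumors of mice with stabilised β-catenin were compared between males with a short and males with a long polyglutamine tract in a humanised allele. The 4 tumor libraries were chosen by their labels alone, 2 from tumors with 12 glutamines (12Q) and 2 from tumors with 48 (48Q), out of 6 libraries in all, and all 24091 genes of the count table entered. Both tumor groups carried the humanised allele over the Y chromosome, 1 β-catenin allele written Ctnnb1(Ex3)L/wt, whose exon 3 is conditional, and the PBCre-4 transgene. This transgene expresses Cre recombinase from a probasin promoter, which limits it to prostate epithelium. The other 2 libraries came from normal prostate labelled wild type (WT), and no group without tumors carried the humanised alleles. WT values are printed beside the tumor values as a reference and shared in the estimate of the spread. RNA came from fresh tumor or prostate tissue, and the labels give neither the animals' age nor whether the libraries of a group came from separate animals. The p-values therefore measure the spread between these libraries, which may be technical.

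β-Catenin carries the signal of Wnt ligands into the nucleus, and loss of the residues encoded by exon 3 of its gene protects it from degradation. The prostate gland is lined by luminal cells that secrete seminal proteins under the control of androgens. A layer of basal cells separates them from a stroma of smooth muscle and fibroblasts. Cells short of oxygen stabilise hypoxia-inducible factors, which raise the genes of glycolysis and of vessel growth.

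Levels are given as CPM, the usual depth-scaled count unit, with TMM-scaled library totals, in the order replicate 1 and replicate 2. Total counts were between 26416181 and 28559546 in the tumor libraries, and TMM factors were between 1.02 and 1.24. Across genes, the log levels of the 12Q libraries correlated at r = 0.953 and those of the 48Q libraries at r = 0.988, against 0.900 to 0.922 between groups. The 12Q libraries stood further apart from each other, for example in a prostate secretion. Tgm4, a transglutaminase of the seminal clot, was at 14538 and 598 CPM in 12Q and at 9655 and 7509 in 48Q. For this gene, which was chosen after its values were seen, 12Q replicate 1 lay above both 48Q libraries and 12Q replicate 2 below them. Exons of Tgm4 overlap another gene, and no direction was read from it.

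Between 12Q and 48Q tumors, 627 of 15050 genes tested passed the threshold (4.17%, edgeR's quasi-likelihood test, adjusted p under 0.05). Of these, 152 were higher in 12Q (1.01%) and 475 were lower (3.16%). Counts of calls in the gene lists below are to be read beside these shares. The 2 groups did not overlap in 10049 of the genes tested (66.8%), among them all 627. The median log2 fold change was 0.00 over all genes tested, 1.90 over the genes called higher and -4.97 over those called lower, or -4.57 with genes without a 12Q count at the smallest change that 3 counts per library allow. Of the 475 genes called lower, 308 had a mean under 1 CPM in 12Q and 63 had no count there at all. Genes with a count numbered 15992 and 16619 in 12Q, 17900 and 17848 in 48Q, with 15930 and 16613 in WT. Among genes tested, 222 had no count in 12Q and 0 had none in 48Q. The part of this difference between libraries in the lower calls was not tested. For genes with no count in 12Q, folds below are the smallest that 3 counts per 12Q library would allow, and for genes with 1 to 3 counts in 12Q the ratio of CPM is given with its exact 95% Poisson interval, which covers counting error only. When library totals replaced the TMM scaling, the median of all genes moved to -0.19, and 62 genes were higher and 379 lower, so that higher calls made up 14.1% in place of 24.2%.

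**Figure D1:**
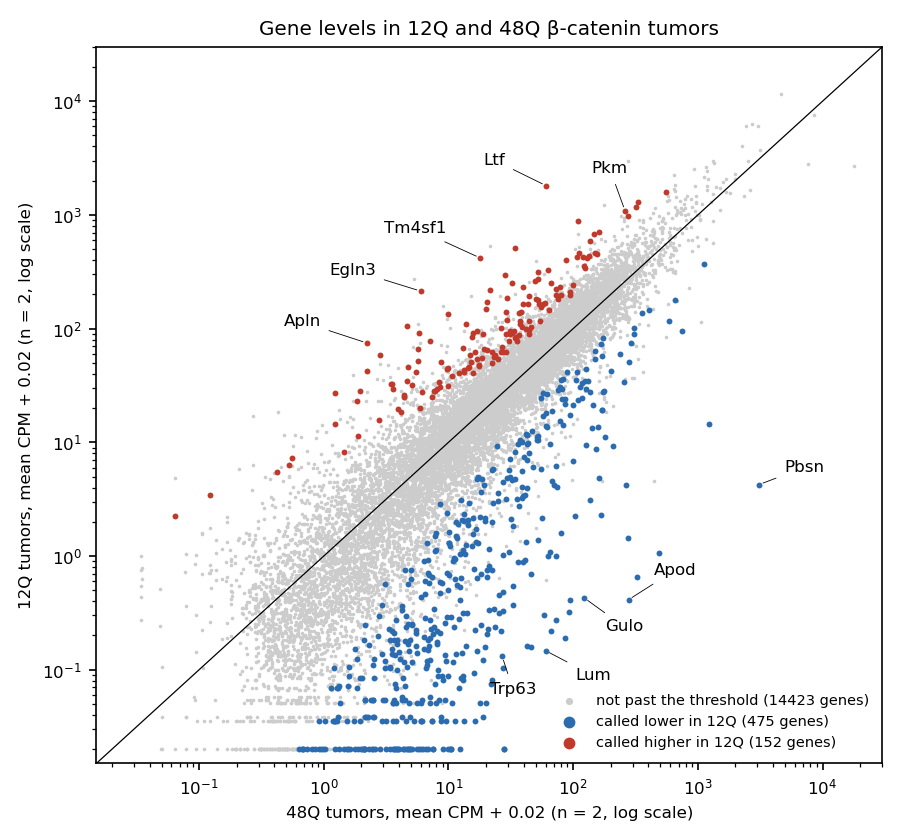
Each point is 1 of the 15050 genes tested, with its mean CPM in the 48Q tumors (x axis) and in the 12Q tumors (y axis), both on log scales after adding 0.02, and the line marks equal levels. The 475 genes called lower in 12Q (blue) reach down to the row of genes without a count in 12Q, while the 152 called higher (red) lie closer to the line.

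The counts rested on all 4 tumor libraries. The 627 calls became 147 without 12Q replicate 1, 94 without 12Q replicate 2, 47 without 48Q replicate 1 and 126 without 48Q replicate 2. Without 48Q replicate 1, 1 gene was higher and 46 were lower. Of the 627 genes, 29 passed in each of these 4 fits, 28 lower and 1 higher, and none of the 627 changed sign in any of them. The 29 included Lum, Pdgfra, Fbln1, Lox, Apod, Trp63, Krt5, Krt15, Col17a1 and Cdh3, and the 1 higher gene was Tm4sf1.

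**Figure D2:**
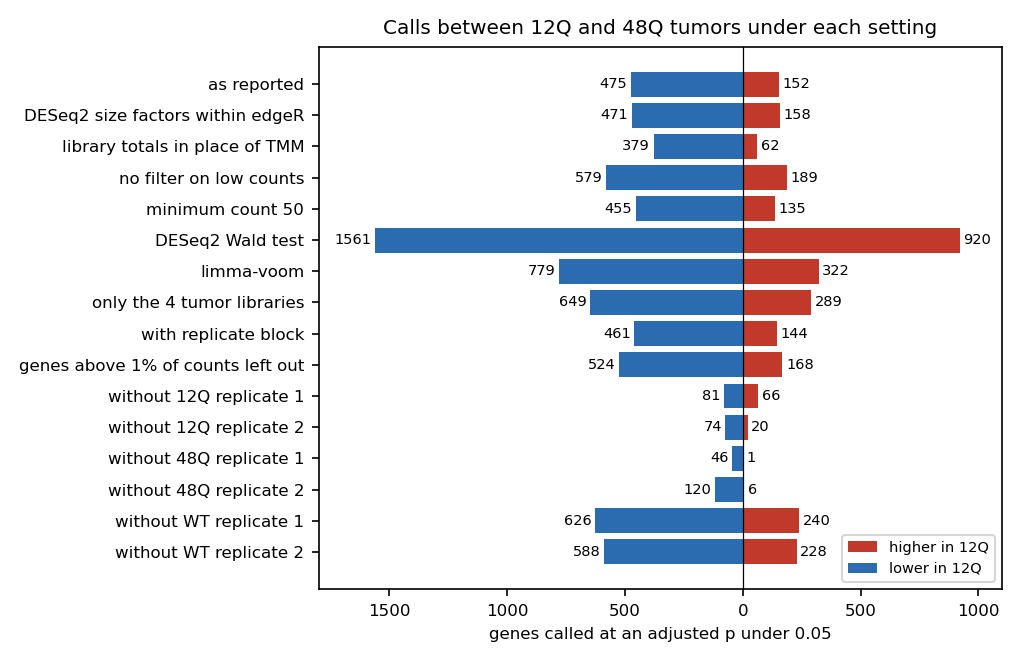
Bars give the number of genes called higher (red, to the right) and lower (blue, to the left) in 12Q against 48Q tumors at an adjusted p under 0.05, for the fit as reported and each other setting, on a linear axis from 0. The fit as reported has 152 and 475 genes, the fits without a tumor library have the fewest, and DESeq2's Wald test has 920 and 1561.

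The targeted gene Ctnnb1, which encodes β-catenin, was at 958 and 1035 CPM in 12Q, 1082 and 957 in 48Q, with 669 and 569 in WT. The tumor groups overlapped (log2 fold change -0.03 ± 0.30 (SE), edgeR adjusted p = 0.954). This sign turned to 0.051 without 12Q replicate 1 and to 0.061 without 48Q replicate 1. A count over the whole gene does not tell whether exon 3 was removed, and exons of Ctnnb1 overlap another gene, so the genotypes are unchecked by it. Both tumor groups held epithelial RNA: Epcam, an adhesion protein of epithelia, was at 414 and 542 CPM in 12Q and 285 and 201 in 48Q. Krt18, a keratin of luminal cells, was at 2002 and 2458 CPM in 12Q and 709 and 577 in 48Q. Neither passed (edgeR adjusted p = 0.259 and 0.122), although for both genes, chosen after their values were seen, the 12Q libraries lay above the 48Q libraries. Of 16 luminal markers, 0 were higher and 1 was lower, and their median log2 fold change was 0.30 (0.62 without 12Q replicate 2 and 0.13 with library totals).

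Target genes of Wnt/β-catenin signalling did not separate the tumor groups by the test. Of 23 tested, 0 passed in either direction in edgeR (8 at an unadjusted p under 0.05), with 13 above 0 and a median log2 fold change of 0.47. The median was 0.10 without 12Q replicate 2 and 0.28 with library totals. Cd44, a hyaluronan receptor, was at 1012 and 1298 CPM in 12Q, 415 and 488 in 48Q, with 25.6 and 15.3 in WT. Its 12Q values lay above both 48Q values without passing (log2 fold change 1.36 ± 0.36 (SE), edgeR adjusted p = 0.0820). Axin2, a scaffold of the complex that degrades β-catenin, was at 471 and 771 CPM in 12Q and 614 and 562 in 48Q. These groups overlapped (log2 fold change 0.08, and -0.090 with library totals and -0.31 without 12Q replicate 2), and exons of Axin2 overlap another gene. Myc, chosen after its values were seen, was at 157 and 171 CPM in 12Q and 91.4 and 84.0 in 48Q (edgeR adjusted p = 0.0605). By DESeq2's Wald test, 6 of the 23 targets were higher and 1 was lower, and without 12Q replicate 1 edgeR called 1 higher.

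Among 44 Wnt ligands, receptors and antagonists, 1 was higher in 12Q and 5 were lower (median log2 fold change -0.24, or -0.15 with genes without a 12Q count at their bound, and -0.86 without 12Q replicate 2). Sfrp1, a secreted antagonist that binds Wnt ligands, was at 0.222 and 0.557 CPM in 12Q, 83.7 and 104 in 48Q, with 6.31 and 19.8 in WT. Both 12Q libraries lay far below both 48Q libraries (log2 fold change -7.87 ± 0.79 (SE), edgeR adjusted p = 0.0165). Rspo3, a secreted ligand that amplifies Wnt signalling, had 2 counts in 12Q against 9.48 and 4.71 CPM in 48Q, a ratio of 0.00479 (0.000579 to 0.0174). Ratios of so few counts move with the libraries: that of Rspo3 was 0.00880 without 12Q replicate 1, and without 12Q replicate 2 no count was left. Ror1, a Wnt receptor, was at 0.148 and 0.309 CPM in 12Q and 19.8 and 16.9 in 48Q. The antagonists Sfrp4 and, chosen after its values were seen, Frzb were also called lower. Wnt7b, a ligand chosen after its values were seen, rose to 97.8 and 184 CPM from 37.1 and 39.9 (edgeR adjusted p = 0.0466). This call was lost in 5 of 9 other settings, with an edgeR adjusted p of up to 0.0666 under library totals. Exons of Rspo3 and Wnt7b overlap other genes. Of the 6 calls, 0 held without 12Q replicate 1, 0 without 12Q replicate 2, 1 without 48Q replicate 1 and 3 without 48Q replicate 2.

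Among the gene lists, that of fibroblasts and matrix held the most lower calls. Of 34 genes, 14 were lower in 12Q and 0 higher, with a median log2 fold change of -2.08. Lum, the matrix proteoglycan lumican, was at 0.0370 and 0.217 CPM in 12Q, 63.5 and 57.0 in 48Q, with 18 and 22.9 in WT (log2 fold change -8.78 ± 0.62 (SE), edgeR adjusted p = 0.00813). Pdgfra, a growth factor receptor that marks fibroblasts, was at 0.851 and 1.11 CPM in 12Q and 82.0 and 63.6 in 48Q (-6.20 ± 0.44, edgeR adjusted p = 0.00813). Lox, which crosslinks collagen and elastin, was at 0.222 and 0.371 CPM in 12Q and 24.8 and 26.2 in 48Q (-6.39 ± 0.48, edgeR adjusted p = 0.00813). In each of these genes both 12Q libraries lay below the 48Q and the WT libraries. Fbln1, a matrix glycoprotein, fell to 0.925 and 0.867 CPM from 42.5 and 40.2 (edgeR adjusted p = 0.00813). Dpt, the matrix protein dermatopontin, had no count in either 12Q library against 14.3 and 6.67 CPM in 48Q, at least 103-fold lower (65.5-fold without 48Q replicate 1). In bulk tissue, fewer cells of a type and less RNA per cell cannot be told apart.

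Of the 34 genes, 4 lay above 0, and the groups did not overlap in 28, each lower in 12Q. Over all genes tested, the groups did not overlap in 66.8%, counting both directions. Col1a1, a chain of the main fibrillar collagen and chosen after its values were seen, was at 73.9 and 195 CPM in 12Q and 147 and 191 in 48Q, so the groups overlapped, and its log2 fold change of -0.33 became 0.23 without 12Q replicate 1. Summed over the 34 genes, the level was 1058 and 1378 CPM in 12Q, 2965 and 2718 in 48Q, with 1577 and 2407 in WT. Several of the largest decreases were in none of the lists. Apod, the lipid-binding apolipoprotein D, was at 0.259 and 0.526 CPM in 12Q and 308 and 248 in 48Q (log2 fold change -9.43 ± 0.66 (SE), edgeR adjusted p = 0.00813). Myoc, which encodes myocilin, had no count in 12Q against 39.3 and 16.0 CPM in 48Q, at least 271-fold lower (157-fold without 48Q replicate 1). C7, a complement component, had no count in 12Q against 17.0 and 7.76 CPM in 48Q, at least 122-fold lower (76.1-fold without 48Q replicate 1). Dpyd, an enzyme of pyrimidine breakdown, had 1 count in 12Q against 24.1 and 13.9 CPM in 48Q, a ratio of 0.000893 (2.26e-05 to 0.00498). Fmod, the collagen-binding proteoglycan fibromodulin and chosen after its values were seen, was at 0.185 and 0.217 CPM in 12Q and 75.0 and 56.6 in 48Q. Exons of Pdgfra, Lox and Myoc overlap other genes. The count of 14 in the list was 9 without 12Q replicate 1, 8 without 12Q replicate 2, 9 without 48Q replicate 1 and 9 without 48Q replicate 2, and 24 by DESeq2.

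Lower calls were also found among contractile genes of smooth muscle. Of 17 tested, 7 were lower in 12Q and 0 higher, with a median log2 fold change of -3.55. Myh11, the smooth muscle myosin heavy chain, was at 1.92 and 2.66 CPM in 12Q, 263 and 69.4 in 48Q, with 771 and 2459.7 in WT (log2 fold change -6.17 ± 0.95 (SE), edgeR adjusted p = 0.0297). Cnn1, which encodes calponin, was at 0.666 and 0.681 CPM in 12Q and 70.0 and 22.4 in 48Q (-6.09 ± 0.76, edgeR adjusted p = 0.0229). Both genes were lowest in 12Q and highest in WT, and 48Q replicate 1 lay above 48Q replicate 2. Des, the intermediate filament desmin, and Tagln, an actin-binding protein, fell by 4.73 and 3.87 on the log2 scale (edgeR adjusted p = 0.0246 and 0.0277), and exons of both overlap other genes. Acta2, smooth muscle actin and chosen after its values were seen, was at 26.3 and 22.1 CPM in 12Q and 256 and 99.99 in 48Q without passing (edgeR adjusted p = 0.0578). The count of 7 was 0 without 12Q replicate 1, 0 without 12Q replicate 2, 1 without 48Q replicate 1 and 6 without 48Q replicate 2. The summed level of the 17 genes was 944 and 753 CPM in 12Q and 1584 and 738 in 48Q, so the sums overlapped. Of 9 pericyte markers, 0 passed in edgeR or DESeq2 (0 at an unadjusted p under 0.05, median log2 fold change -0.61, and -0.01 without 12Q replicate 1). Of 11 genes of Schwann cells and nerve, 1 was lower, Scn7a, a sodium channel with 2 counts in 12Q against 20.4 and 15.3 CPM in 48Q, a ratio of 0.00190 (0.000229 to 0.00686).

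**Figure D3:**
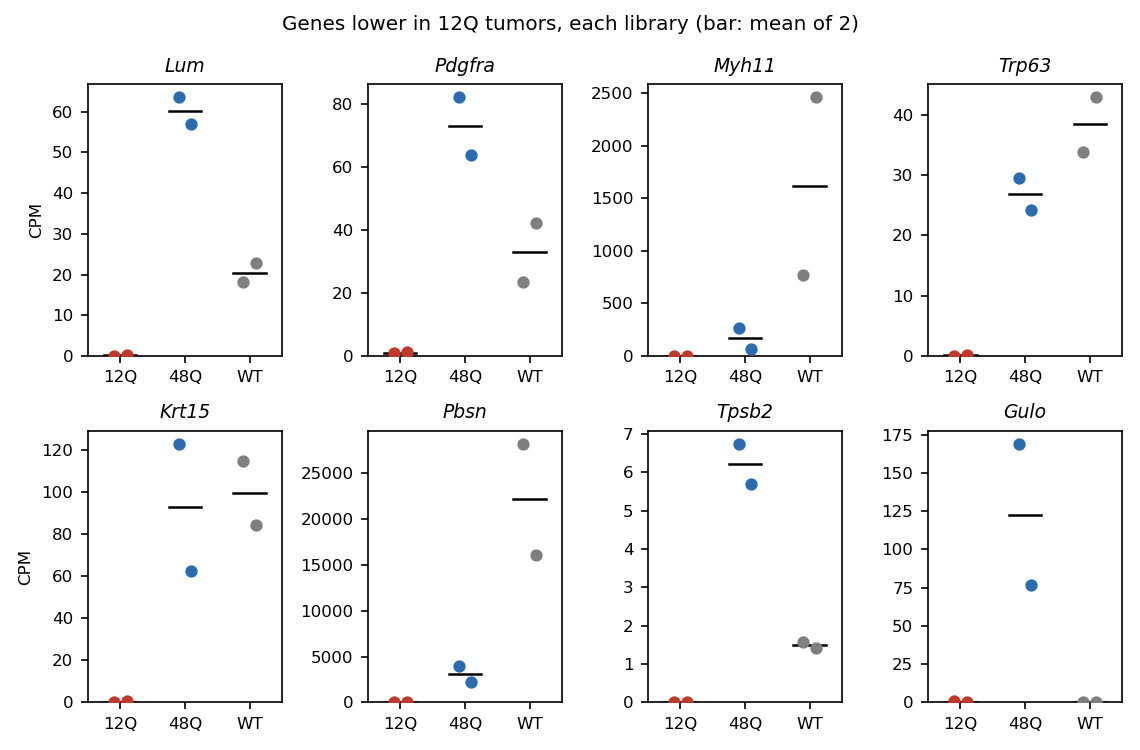
CPM of 8 genes in each library of 12Q tumors (red), 48Q tumors (blue) and WT prostate (grey), on linear axes that start at 0, with a bar at the mean of each group. Lum, Pdgfra, Myh11, Trp63, Krt15, Pbsn, Tpsb2 and Gulo all lie near 0 in both 12Q libraries, and Gulo is also at 0 in WT.

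Of 17 basal epithelial markers, 6 were called lower in 12Q and 0 higher, with a median log2 fold change of -2.47. Of the 11 that did not pass, 4 lay above 0, up to 2.15, and 3 of them without overlap between groups. Such separation was found in 66.8% of all genes tested, counting both directions. The summed level of the 17 genes was 1060 and 1357 CPM in 12Q and 1651 and 1644 in 48Q. Trp63, the transcription factor p63 of basal cells, was at 0.0370 and 0.186 CPM in 12Q, 29.6 and 24.2 in 48Q, with 33.9 and 42.9 in WT (-7.80 ± 0.59 (SE), edgeR adjusted p = 0.00813). Krt15, a basal keratin, was at 0.0740 and 0.526 CPM in 12Q, 123 and 62.7 in 48Q, with 115 and 84.3 in WT (-8.20 ± 0.80, edgeR adjusted p = 0.0161). Col17a1, a collagen of hemidesmosomes, was at 0.0740 and 0.0928 CPM in 12Q and 28.5 and 26.6 in 48Q (-8.28 ± 0.48, edgeR adjusted p = 0.00813). For Trp63 and Krt15 the 48Q libraries were near the WT libraries, and both 12Q libraries were under 1 CPM. Cdh3, the cadherin of basal cells, had 3 counts in 12Q against 12.1 and 12.1 CPM in 48Q, a ratio of 0.00417 (0.000859 to 0.0122). The remaining calls were Krt5, a basal keratin at 0.0740 and 0.433 against 65.2 and 79.5 CPM, and Dst, a linker of hemidesmosomes at 58.4 and 42.6 against 299 and 267 CPM, both chosen after their values were seen. Exons of Krt5 and Dst overlap other genes. Krt14, the partner keratin of Krt5 and also chosen after its values were seen, was at 1.33 and 3.90 CPM in 12Q and 18.8 and 29.8 in 48Q without passing (edgeR adjusted p = 0.0776). The count of 6 was 5 without each of the 4 tumor libraries in turn. The lower fibroblast sum above moved with these values, and its part in them was not tested.

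Pbsn, the gene of the androgen-dependent secretion probasin, stood at 3.33 and 5.14 CPM in 12Q, 3954 and 2248 in 48Q, with 28214 and 16143 in WT (log2 fold change -9.51 ± 0.97 (SE), edgeR adjusted p = 0.0165). Both 12Q libraries lay below both 48Q libraries, which lay below WT. The call was lost without 12Q replicate 2 and without 48Q replicate 1. The PBCre-4 transgene of both tumor groups uses a probasin promoter, which is not printed here. The promoter of the mouse gene itself is shown because the gene is a classic androgen-responsive gene of the prostate. It is printed as the 250 bases before the RefSeq start (GRCm38.p6, chrX:77853501-77853750, minus strand), with capitals marking TGTTCT or its reverse complement, the repeat of the binding element of steroid receptors.
Pbsn: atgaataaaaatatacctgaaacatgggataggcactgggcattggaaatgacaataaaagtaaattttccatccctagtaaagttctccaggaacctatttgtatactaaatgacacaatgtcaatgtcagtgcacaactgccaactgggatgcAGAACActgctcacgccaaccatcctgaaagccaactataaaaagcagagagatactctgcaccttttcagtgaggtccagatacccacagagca
The single match lies 95 bases before the start. These letters, read on both strands, were found in 16.1% of 32851 such windows, and in 13.3% of the 11551 genes tested that have one.

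Other secretions followed Pbsn only in part. Of 23 prostate secretory products, 5 were lower and 0 higher (median log2 fold change -1.56), and of 34 androgen-responsive genes 3 were lower and 0 higher (median -0.34). The first median was -3.13 without 12Q replicate 1, -0.95 without 12Q replicate 2 and -0.92 without 48Q replicate 1. The second was -0.71 without 12Q replicate 1, -0.16 without 12Q replicate 2 and -0.54 with library totals. Apof, an apolipoprotein, fell to 5.85 and 3.59 CPM from 44.6 and 24.2 (edgeR adjusted p = 0.0289). Abcc4, an efflux pump, was at 8.69 and 7.61 CPM in 12Q, 37.0 and 30.7 in 48Q, with 67.8 and 90.8 in WT (edgeR adjusted p = 0.0235). Spock1, a proteoglycan, was at 0.222 and 0.186 CPM in 12Q and 14.8 and 18 in 48Q (edgeR adjusted p = 0.0175). In all 3 genes the 12Q libraries lay below the 48Q libraries. Svs5, Svs4 and Pate4 are secretions of the seminal vesicle as well. Svs5 was at 0.0370 and 0.124 CPM in 12Q, 5.93 and 10.6 in 48Q, with 0.0522 and 0.0442 in WT (edgeR adjusted p = 0.0216). Svs4 was at 0.629 and 1.98 CPM in 12Q and 13.4 and 19.6 in 48Q, and Pate4, whose exons overlap another gene, at 0.259 and 0.0928 CPM against 3.25 and 9.33.

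Of 10 tested seminal vesicle secretions, 4 were lower, the fourth being Sva, with no count in 12Q against 5.57 and 6.33 CPM in 48Q (at least 58.4-fold lower). The summed level of the 12 listed genes in the table was 3.29 and 46.1 CPM in 12Q, 43.3 and 68.1 in 48Q, with 0.887 and 0.884 in WT. Pieces of seminal vesicle in a tumor sample would move these genes together, and the part of such tissue was not tested. The count of 5 secretory products was 3 without 12Q replicate 1, 1 without 12Q replicate 2, 0 without 48Q replicate 1 and 2 without 48Q replicate 2. The count of 3 androgen-responsive genes was 2, 0, 0 and 2 in the same order. None of the 4 seminal vesicle calls passed in these fits, and Svs4 did not pass with library totals (edgeR adjusted p = 0.0601).

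Transcription factors of the prostate lineage followed no single direction, with 6 of 31 lower, 0 higher and a median log2 fold change of 0.14, which was -0.23 without 12Q replicate 1 and -0.07 with library totals. Spdef, a factor of secretory epithelium and the only luminal marker called, was at 0.740 and 1.30 CPM in 12Q, 20.6 and 6.30 in 48Q, with 82.0 and 54.3 in WT (-3.70 ± 0.66 (SE), edgeR adjusted p = 0.0402). Hoxd13, a homeobox gene of the urogenital tract, was at 0 and 0.124 CPM in 12Q and 30.1 and 14.3 in 48Q (edgeR adjusted p = 0.0229). Both factors were lower in each 12Q library than in either 48Q library. Hoxd10 had no count in 12Q against 5.36 and 3.79 CPM in 48Q, at least 44.9-fold lower, and its exons overlap another gene. Sox2, a factor of progenitor and neuroendocrine cells, had 2 counts in 12Q against 6.41 and 4.79 CPM in 48Q, a ratio of 0.00604 (0.000729 to 0.0220). Pgr, the progesterone receptor gene and chosen after its values were seen, had 3 counts in 12Q against 8.55 and 6.90 CPM in 48Q, a ratio of 0.00656 (0.00135 to 0.0193). Genes of other lists that were lower included Agr2, which folds mucins, at 19.9 and 6.96 CPM against 185 and 100.3, and Egf, the epidermal growth factor gene, at 5.11 and 1.05 CPM against 204 and 70.4. Exons of Egf overlap another gene, and neither passed with the tumor libraries alone (edgeR adjusted p = 0.0546 and 0.0544). Spdef did not pass there either (0.0600), nor did Hoxd10 and Pgr with library totals (0.0524 and 0.0505). The count of 6 factors was 0 without 12Q replicate 1, 0 without 12Q replicate 2, 0 without 48Q replicate 1 and 3 without 48Q replicate 2.

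Some of the lower genes were high in 48Q tumors and low in both 12Q tumors and WT. Gulo, whose enzyme makes the last step of vitamin C synthesis, was at 0.629 and 0.186 CPM in 12Q, 169 and 76.6 in 48Q, with 0 and 0 in WT (log2 fold change -8.25 ± 0.79 (SE), edgeR adjusted p = 0.0205). Slc1a2, a glutamate transporter, was at 1.41 and 8.17 CPM in 12Q, 200.02 and 123 in 48Q, with 0.0522 and 0 in WT (-5.07 ± 0.86, edgeR adjusted p = 0.0365). Pla2g2a, a secreted phospholipase of Paneth cells, was at 0.0370 and 2.82 CPM in 12Q, 419 and 136 in 48Q, with 0.0522 and 0.0442 in WT (-7.57 ± 1.43, edgeR adjusted p = 0.0449). All 3 genes were thus high in the 48Q libraries alone. Slco1b2, an organic anion transporter, had no count in 12Q or WT against 8.04 and 13.0 CPM in 48Q, at least 103-fold lower in 12Q. Gabra4, a subunit of a GABA receptor, had no count in 12Q against 38.1 and 18.1 CPM in 48Q, with 0.730 and 1.24 in WT, at least 276-fold lower (178-fold without 48Q replicate 1).

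Gabra3, another such subunit, and Pclo, a protein of synapses, had 1 count each in 12Q, ratios of 0.00152 (3.84e-05 to 0.00848) and 0.00128 (3.23e-05 to 0.00713), and were also present in WT. Further genes low in 12Q and WT were Serpina3n, a protease inhibitor at 0.0370 and 0.248 CPM in 12Q against 31.8 and 52.9 in 48Q, and Npl, an enzyme of sialic acid breakdown at 8.92 and 8.57 CPM against 175 and 131. Npl and Ptprt, a receptor phosphatase at 1.44 and 1.18 CPM against 49.0 and 34.0, were chosen after their values were seen and passed in each of the 4 fits without a tumor library. Gsta3, a glutathione transferase, was at 3.996 and 0.495 CPM in 12Q and 115 and 90.6 in 48Q. Mt3, a metallothionein, was at 7.10 and 1.24 CPM in 12Q, 347 and 185 in 48Q, with 102 and 84.6 in WT, and so was not low in WT. The hair keratins Krt84 and Krt81 had 2 and 3 counts in 12Q, ratios of 0.00408 (0.000493 to 0.0148) and 0.0397 (0.00803 to 0.120). They were the 2 lower calls among 31 hair follicle genes tested, with 1 higher, Dlx3. Of the 31, 18 lay above 0. Their median log2 fold change was 0.19 (-0.10 without 12Q replicate 1 and -2.39 without 12Q replicate 2). The summed level of the 45 listed genes was 808 and 2122 CPM in 12Q and 447 and 581 in 48Q. Exons of Slc1a2, Gabra4 and Pclo overlap other genes. Gabra4 and Serpina3n passed without each tumor library, whereas Slco1b2, Gsta3 and Krt81 passed in none of these 4 fits. Gulo, Pla2g2a and Slc1a2 passed in 2, 1 and 1 of them. With the tumor libraries alone Slc1a2, Pla2g2a and Gsta3 did not pass (edgeR adjusted p = 0.0543, 0.0643 and 0.0539).

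Among the gene lists, that of glycolysis and the response to low oxygen held the most higher calls. Of 33 tested, 14 were higher in 12Q and 0 lower, 31 had a log2 fold change above 0, and the median was 2.02. Along glycolysis, the calls covered phosphoglucose isomerase (Gpi1), phosphofructokinase (Pfkl and Pfkp), aldolase (Aldoa and Aldoc), triosephosphate isomerase (Tpi1), phosphoglycerate kinase (Pgk1), phosphoglycerate mutase (Pgam1), pyruvate kinase (Pkm) and lactate dehydrogenase (Ldha). Pfkl was at 231 and 294 CPM in 12Q, 47.5 and 51.8 in 48Q, with 28.1 and 31.6 in WT (log2 fold change 2.40 ± 0.24 (SE), edgeR adjusted p = 0.0165). Tpi1 was at 786 and 617 CPM in 12Q, 153 and 169 in 48Q, with 227 and 183 in WT (2.12 ± 0.28, edgeR adjusted p = 0.0246). Pgk1 was at 37.7 and 52.0 CPM in 12Q and 9.82 and 9.87 in 48Q (2.19 ± 0.30, edgeR adjusted p = 0.0253). For these 3 enzymes both 12Q libraries lay above every 48Q and WT library. Pkm was at 916 and 1259.7 CPM in 12Q and 242 and 279 in 48Q, and Ldha at 917 and 1025 CPM against 265 and 290.1. Pgk1, Pkm, Ldha and the other glycolytic genes beyond Pfkl and Tpi1 fell outside the rule for naming and were chosen after their values were seen.

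The remaining calls of this list act around glycolysis. Slc16a3, which exports lactate, was at 64.0 and 147 CPM in 12Q, 4.25 and 5.05 in 48Q, with 0.522 and 0.575 in WT (log2 fold change 4.50 ± 0.46 (SE), edgeR adjusted p = 0.0165). Bnip3, a mitochondrial protein of mitophagy, was at 88.3 and 93.6 CPM in 12Q and 16.5 and 14.9 in 48Q (2.53 ± 0.24, edgeR adjusted p = 0.0157). Egln3, a prolyl hydroxylase that marks hypoxia-inducible factors for degradation, was at 48.4 and 379 CPM in 12Q and 5.63 and 6.33 in 48Q (5.16 ± 0.96, edgeR adjusted p = 0.0437). Both 12Q libraries were above the 48Q libraries in these genes, but for Egln3 12Q replicate 2 was far above 12Q replicate 1. Pdk1, a kinase that keeps pyruvate out of mitochondria, rose to 95.3 and 142 CPM from 33.4 and 25.3. Among the 19 genes that did not pass, Slc2a1, the glucose transporter GLUT1, was at 83.5 and 156 CPM in 12Q and 30.4 and 26.3 in 48Q (edgeR adjusted p = 0.0525). Vegfa, the vascular growth factor, was at 115 and 241 CPM in 12Q and 76.8 and 114 in 48Q (edgeR adjusted p = 0.209). Car9, a carbonic anhydrase, was at 0.0740 and 34.1 CPM in 12Q and 0.301 and 0.200 in 48Q, so that it was high in 12Q replicate 2 alone, and its log2 fold change of 6.07 became -1.68 without that library. These 3 genes and Pdk1 were chosen after their values were seen.

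**Figure D4:**
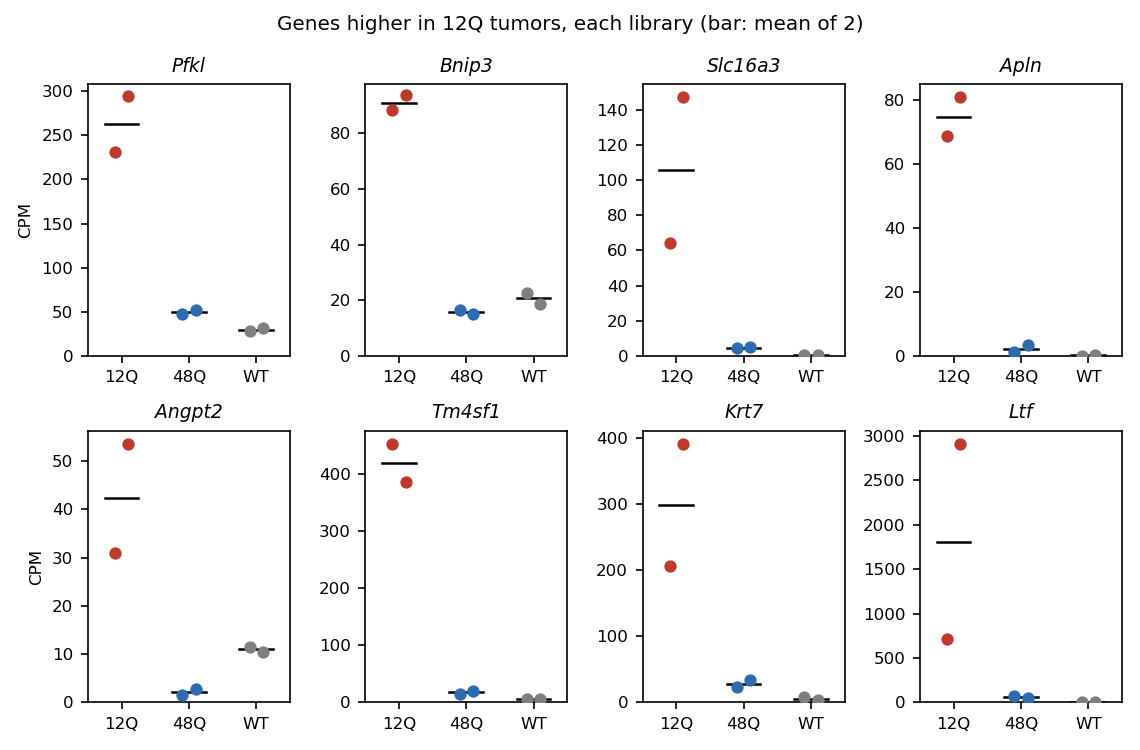
CPM of 8 genes in each library of 12Q tumors (red), 48Q tumors (blue) and WT prostate (grey), on linear axes that start at 0, with a bar at the mean of each group. In Pfkl, Bnip3, Slc16a3, Apln, Angpt2, Tm4sf1, Krt7 and Ltf both 12Q libraries lie above both 48Q libraries. In each of them except Tm4sf1, 12Q replicate 2 is the higher of its group.

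The promoters of 4 of these genes are shown because hypoxia-inducible factors bind elements with the core ACGTG. Each is the 250 bases before a RefSeq start in GRCm38.p6, and capitals mark ACGTG or its reverse complement. They are Pgk1 (chrX:106186850-106187099, plus strand), Bnip3 (chr7:138909507-138909756, minus strand), Egln3 (chr12:54203875-54204124, minus strand) and Slc16a3 (chr11:120948817-120949066, plus strand), chosen among the called genes that hold the core.
Pgk1: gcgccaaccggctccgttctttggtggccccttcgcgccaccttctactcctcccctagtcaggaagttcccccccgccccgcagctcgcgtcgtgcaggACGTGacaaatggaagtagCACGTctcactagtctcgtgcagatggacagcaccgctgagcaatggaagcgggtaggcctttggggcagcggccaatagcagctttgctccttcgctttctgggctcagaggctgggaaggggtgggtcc
Bnip3: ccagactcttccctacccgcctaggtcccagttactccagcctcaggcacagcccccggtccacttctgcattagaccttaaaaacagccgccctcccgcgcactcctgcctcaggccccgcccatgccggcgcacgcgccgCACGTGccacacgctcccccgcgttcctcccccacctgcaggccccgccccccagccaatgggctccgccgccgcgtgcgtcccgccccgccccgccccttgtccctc
Egln3: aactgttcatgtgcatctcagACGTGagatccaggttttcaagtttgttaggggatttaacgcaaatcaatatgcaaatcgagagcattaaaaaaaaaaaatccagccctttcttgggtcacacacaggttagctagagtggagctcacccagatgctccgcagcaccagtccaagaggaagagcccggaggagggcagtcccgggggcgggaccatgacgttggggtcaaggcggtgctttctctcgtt
Slc16a3: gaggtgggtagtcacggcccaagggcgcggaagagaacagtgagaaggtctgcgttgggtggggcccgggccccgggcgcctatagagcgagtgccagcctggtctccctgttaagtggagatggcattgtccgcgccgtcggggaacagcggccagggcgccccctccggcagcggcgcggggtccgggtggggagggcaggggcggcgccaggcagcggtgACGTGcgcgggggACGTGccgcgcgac
Pgk1 and Slc16a3 hold 2 matches each, Egln3 holds 1, and the 2 matches of Bnip3 are the same palindrome read on both strands. Of the 14 called genes, all of which have a window, 8 held the core in at least 1 window (57.1%), and so did 11 of the 17 genes of the list with a window that did not pass (64.7%). The core was found in 16.6% of all 32851 windows and in 24% of the 11551 genes tested that have one. Among genes called higher and genes called lower with a window the shares were 25.5% and 21.2%. A match of these letters is a description of the sequence only.

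Limits of these values lie in the libraries and in the counting. The count of 14 was 12 without 12Q replicate 1, 4 without 12Q replicate 2, 0 without 48Q replicate 1 and 1 without 48Q replicate 2. With library totals it was 11, and Egln3, Pfkp and Pgam1 did not pass (edgeR adjusted p = 0.0605, 0.0585 and 0.0514). Gapdh, a glycolytic enzyme chosen after its values were seen, was at 0.444 and 2.41 CPM in 12Q and 0.994 and 0.913 in 48Q, and its log2 fold change of 0.59 became -1.08 without 12Q replicate 2. Gapdh has near-identical copies elsewhere in the genome, so its counts are uncertain, and those of Aldoa, Gpi1, Pfkp, Pkm, Tpi1, Bnip3, Slc2a1 and Car9 are uncertain because their exons overlap other genes. Subunits of oxidative phosphorylation showed 0 calls among 38 in edgeR (10 at an unadjusted p under 0.05, and 3 higher by DESeq2), with 36 above 0 and a median log2 fold change of 0.61 (0.21 without 12Q replicate 1). The lower fibroblast sum moved with the higher glycolytic sum (6071 and 7994 CPM in 12Q against 1970 and 2063 in 48Q), and its part in it was not tested.

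Of 18 endothelial genes, 3 were called higher in 12Q and 0 lower, 17 lay above 0 and the median log2 fold change was 0.92. The 3 calls are genes of sprouting endothelium. Apln, the peptide ligand apelin, was at 68.7 and 80.7 CPM in 12Q, 1.11 and 3.28 in 48Q, with 0.0522 and 0.265 in WT (5.08 ± 0.66 (SE), edgeR adjusted p = 0.0235). Esm1, a secreted proteoglycan of tip cells, was at 52.8 and 64.7 CPM in 12Q and 2.02 and 3.56 in 48Q (4.39 ± 0.73, edgeR adjusted p = 0.0348). Angpt2, a ligand that loosens vessels, was at 30.9 and 53.6 CPM in 12Q, 1.60 and 2.82 in 48Q, with 11.5 and 10.5 in WT (4.25 ± 0.46, edgeR adjusted p = 0.0188). In all 3 genes both 12Q libraries were the highest of the 6. Pecam1, a marker of all endothelium chosen after its values were seen, was at 65.4 and 56.5 CPM in 12Q and 31.6 and 28.0 in 48Q without passing (edgeR adjusted p = 0.308). Cdh5, the endothelial cadherin and likewise chosen, was at 71.2 and 72.4 CPM in 12Q and 24.2 and 25.2 in 48Q (edgeR adjusted p = 0.151). The count of 3 was 1 without 12Q replicate 1, 0 without 12Q replicate 2, 0 without 48Q replicate 1 and 2 without 48Q replicate 2, and with library totals Esm1 did not pass (edgeR adjusted p = 0.0524). The summed level of 5 red blood cell genes was 144 and 121 CPM in 12Q against 10.9 and 52.2 in 48Q, and the part of blood content in the vessel values was not tested.

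Several genes of simple and stratified epithelium rose in 12Q. Tm4sf1, a surface protein of the tetraspanin kind, was at 452 and 386 CPM in 12Q, 15.5 and 20.2 in 48Q, with 5.16 and 6.15 in WT (log2 fold change 4.55 ± 0.28 (SE), edgeR adjusted p = 0.00813). Tm4sf4, a related gene on the same chromosome, was at 115 and 68.9 CPM in 12Q and 4.396 and 7.19 in 48Q (3.99 ± 0.53, edgeR adjusted p = 0.0246). Tm4sf1 spans 57287064 to 57301919 and Tm4sf4 57425410 to 57441675 of chromosome 3 in mm10. Of 16 markers of proximal luminal progenitors, 3 were higher and 1, Gsta3, was lower, with a median log2 fold change of 0.72. Ltf, the iron-binding lactoferrin, was at 711 and 2908 CPM in 12Q, 72.3 and 49.0 in 48Q, with 0.313 and 0.619 in WT (4.90 ± 0.77, edgeR adjusted p = 0.0316). Krt7, a keratin of simple epithelium, was at 206 and 391 CPM in 12Q and 23.8 and 33.3 in 48Q (3.39 ± 0.51, edgeR adjusted p = 0.0289). Ly6a, the surface antigen Sca-1, was at 498 and 874 CPM in 12Q and 154 and 137 in 48Q (2.24 ± 0.35, edgeR adjusted p = 0.0297). In these 3 genes 12Q replicate 2 was the highest library and WT the lowest. Clu, the chaperone clusterin and chosen after its values were seen, was at 14194 and 8889.7 CPM in 12Q and 4879 and 4476 in 48Q without passing (edgeR adjusted p = 0.219).

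Of 30 genes of squamous keratinization, 3 were higher and 1 lower. Their median log2 fold change was 0.76, but -0.40 without 12Q replicate 2 and 0.18 without 48Q replicate 1, so its sign rested on 1 library. Krt80, an epithelial keratin, was at 185 and 253 CPM in 12Q and 13.5 and 29.7 in 48Q (3.34 ± 0.44 (SE), edgeR adjusted p = 0.0246). Cnfn and Sbsn, of the cornified layer, rose by 3.87 and 3.08 on the log2 scale (edgeR adjusted p = 0.0365 and 0.0380). Krt1, a keratin of differentiating epidermis, went the other way, at 0.0370 and 0.0928 CPM in 12Q and 3.91 and 4.65 in 48Q (-5.92 ± 0.72, edgeR adjusted p = 0.0229). The squamous list thus held members of both directions. Ly6d, a surface antigen, was at 160.3 and 858 CPM in 12Q and 34.0 and 34.6 in 48Q (edgeR adjusted p = 0.0488). Ttc9 and Hgfac, the latter an activator of hepatocyte growth factor, were also among the 12 largest increases (3.75 and 3.64). Dlx3, a homeobox gene of hair and epidermis, was at 64.7 and 114 CPM in 12Q and 15.1 and 22.7 in 48Q (edgeR adjusted p = 0.0459). Slc39a4, a zinc importer, was at 227 and 239 CPM in 12Q and 38.7 and 40.0 in 48Q (edgeR adjusted p = 0.0380). Exons of Krt7, Krt80 and Sbsn overlap other genes. With library totals Ly6a, Sbsn, Ly6d, Dlx3 and Slc39a4 did not pass (edgeR adjusted p from 0.0510 to 0.0723). The 3 progenitor calls were 2 without 12Q replicate 1, 1 without 12Q replicate 2, 0 without 48Q replicate 1 and 0 without 48Q replicate 2, and the 3 squamous calls were 0, 0, 0 and 1.

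Genes of the cell cycle leaned upward, and few passed. Of 36 mitotic genes, 3 were higher and 0 lower, all 36 lay above 0 and the median log2 fold change was 1.47. Of 35 genes of DNA replication and entry into S phase, 0 passed in edgeR (14 at an unadjusted p under 0.05), although all 35 lay above 0 with a median of 1.00. Top2a, a topoisomerase of dividing cells, was at 227 and 241 CPM in 12Q, 61.1 and 95.9 in 48Q, with 37.7 and 30.5 in WT (1.58 ± 0.29 (SE), edgeR adjusted p = 0.0409). Kif20a, a kinesin of cell division, rose by 1.74 and Ccnf, cyclin F, by 1.76 on the log2 scale (edgeR adjusted p = 0.0418 and 0.0492). Exons of all 3 overlap other genes. Mki67, the proliferation marker, chosen after its values were seen, was at 103 and 204 CPM in 12Q and 66.9 and 118 in 48Q, so the groups overlapped (edgeR adjusted p = 0.308). Rrm1, a subunit of ribonucleotide reductase, was at 91.1 and 144 CPM in 12Q and 44.1 and 51.0 in 48Q (edgeR adjusted p = 0.0797). Mcm6, a subunit of the replicative helicase, was at 88.5 and 122 CPM in 12Q and 36.1 and 42.9 in 48Q (edgeR adjusted p = 0.0813). By DESeq2's Wald test, 22 of the 36 mitotic and 11 of the 35 replication genes were higher. Without any 1 of the 4 tumor libraries, 0 genes of either list passed in edgeR, and with library totals the medians were 1.29 and 0.83 with 0 calls in both.

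Most of the mast cell genes tested fell in 12Q tumors. Of 10, 6 were lower and 0 higher, and the median log2 fold change was -7.46, or -4.39 with members without a 12Q count at their bound. Tpsb2, a tryptase, had no count in 12Q against 6.74 and 5.70 CPM in 48Q, with 1.56 and 1.41 in WT, at least 61.1-fold lower. Mcpt4, a chymase, had no count in 12Q against 6.87 and 4.59 CPM in 48Q, at least 56.2-fold lower. Ms4a2, a chain of the IgE receptor, had no count in 12Q against 5.27 and 2.68 CPM in 48Q, at least 39.0-fold lower. Each of these defining genes was thus at 0 in both 12Q libraries, and the summed level of the 10 genes was 12.3 and 14.8 CPM in 12Q against 54.4 and 45.0 in 48Q. Cpa3, a granule carboxypeptidase, had 2 counts in 12Q against 8.55 and 5.65 CPM in 48Q, a ratio of 0.00477 (0.000577 to 0.0173). Cma1 and Mrgprb1 were the other calls, both chosen after their values were seen. Kit, the receptor of stem cell factor, which other cells also make and which was chosen after its values were seen, was at 11.1 and 13.2 CPM in 12Q and 11.2 and 8.27 in 48Q. The count of 6 was 3 without 12Q replicate 1, 1 without 12Q replicate 2, 0 without 48Q replicate 1 and 2 without 48Q replicate 2.

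Fewer genes of other immune cells passed. Over all genes tested, 3.16% were called lower and 1.01% higher, and the macrophage count is near these shares. Of 20 macrophage markers 1 was lower, Cd163, a scavenger receptor with 2 counts in 12Q against 3.04 and 2.88 CPM in 48Q, a ratio of 0.0114 (0.00137 to 0.0417), and their median log2 fold change was -0.23 (-0.09 without 12Q replicate 1). Of 20 genes of antigen presentation, 4 were lower, all of MHC class II, and the median was 0.19 (-0.16 without 12Q replicate 1 and -0.40 without 12Q replicate 2). Cd74, the chaperone of class II, was at 94.4 and 86.2 CPM in 12Q, 314 and 303 in 48Q, with 78.4 and 92.7 in WT (-1.77 ± 0.22 (SE), edgeR adjusted p = 0.0229). H2-Aa, a class II chain, was at 33.2 and 15.4 CPM in 12Q and 122 and 115 in 48Q (-2.29 ± 0.38, edgeR adjusted p = 0.0361). H2-Ab1 and H2-Eb1 fell by 1.85 and 2.23 on the log2 scale. In Cd74, whose exons overlap another gene, and H2-Aa the 12Q libraries were near or below the WT libraries and the 48Q libraries above them. The class II calls numbered 2 without 12Q replicate 1 and 0 without each of the other 3 tumor libraries, and with the tumor libraries alone H2-Aa, H2-Ab1 and H2-Eb1 did not pass (edgeR adjusted p = 0.0521, 0.0511 and 0.0573). Of 15 T and NK cell genes 0 passed in edgeR (2 at an unadjusted p under 0.05, and 1 lower by DESeq2). Of these 2 lay above 0, with a median of -0.71, and the summed level was 31.3 and 33.1 CPM in 12Q against 73.8 and 65.9 in 48Q. Of 6 B and plasma cell genes 0 passed in edgeR (2 at an unadjusted p under 0.05, and 1 lower by DESeq2). Here 0 lay above 0, with a median of -2.38. The summed level, most of it Jchain, was 8.81 and 3.13 CPM in 12Q against 122 and 85.5 in 48Q. Ptprc, the leukocyte antigen CD45, was at 8.14 and 13.2 CPM in 12Q and 42.7 and 37.2 in 48Q (edgeR adjusted p = 0.0615), and Jchain, of plasma cells, at 7.07 and 2.14 CPM against 117 and 80.8 (edgeR adjusted p = 0.161). Of 27 interferon-stimulated genes 0 passed in edgeR or DESeq2 (0 at an unadjusted p under 0.05), with a median of 0.29. This median was 0.72 without 12Q replicate 1 and -0.86 without 12Q replicate 2, so its sign rested on 1 library.

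Among 34 chemokines, cytokines and their receptors, 2 were higher and 4 lower in 12Q, beside 1.01% and 3.16% over all genes tested. Cxcl16, a membrane-bound chemokine, was at 167 and 166 CPM in 12Q, 59.3 and 60.6 in 48Q, with 16.6 and 15.5 in WT (1.48 ± 0.20 (SE), edgeR adjusted p = 0.0246), and its exons overlap another gene. Cxcr4, a receptor chosen after its values were seen, was at 36.1 and 27.0 CPM in 12Q and 10.6 and 9.27 in 48Q (edgeR adjusted p = 0.0451). Cxcl14, a chemokine of epithelium and fibroblasts, was at 7.25 and 15.1 CPM in 12Q and 202 and 157 in 48Q (-3.999 ± 0.71, edgeR adjusted p = 0.0395). In each of these genes the groups stood apart, upward for Cxcl16 and Cxcr4 and downward for Cxcl14. Ccr2, a receptor of monocytes, was at 2.33 and 1.76 CPM in 12Q and 12.8 and 13.0 in 48Q (edgeR adjusted p = 0.0283). Ccl11 had 1 count in 12Q against 1.63 and 0.884 CPM in 48Q, a ratio of 0.0135 (0.000339 to 0.0775). Cxcl13, chosen after its values were seen, had 3 counts against 4.34 and 3.14 CPM, a ratio of 0.0136 (0.00278 to 0.0402). None of these 6 calls held without any 1 of the 4 tumor libraries, and with library totals Cxcr4, Cxcl14 and Cxcl13 did not pass (edgeR adjusted p = 0.0620, 0.0545 and 0.0507).

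Calls among growth factors, their receptors and binding proteins went in both directions. Over all genes tested, 3.16% were called lower and 1.01% higher. Of 18 genes of the IGF axis, 4 were lower and 0 higher, 6 lay above 0 and the median log2 fold change was -0.76. Their summed level was 1402 and 1480 CPM in 12Q and 1613 and 1343 in 48Q, so the sums overlapped. Igfbp2, which binds insulin-like growth factors, was at 0.407 and 0.186 CPM in 12Q, 14 and 14.2 in 48Q, with 24.6 and 30.5 in WT (-5.57 ± 0.48 (SE), edgeR adjusted p = 0.0125). Igfbp6, another binding protein, was at 0.0370 and 0.217 CPM in 12Q and 19.3 and 14.3 in 48Q (-6.94 ± 0.65, edgeR adjusted p = 0.0157). Igf1, the ligand, was at 6.03 and 5.42 CPM in 12Q and 21 and 23.8 in 48Q (-1.97 ± 0.34, edgeR adjusted p = 0.0381). Both of these binding proteins were under 1 CPM in the 12Q libraries, and the other members of the family that were tested did not pass. Pappa, a protease that frees the ligand, had no count in 12Q against 2.62 and 3.68 CPM in 48Q, at least 30.9-fold lower. Of 30 EGF and FGF ligands and receptors, 4 were lower and 1 higher. Fgf7, a stromal ligand of epithelial receptors, had 2 counts in 12Q against 5.39 and 3.05 CPM in 48Q, a ratio of 0.00805 (0.000970 to 0.0293). Erbb4, a receptor, had no count in 12Q against 6.17 and 1.37 CPM in 48Q, at least 37.0-fold lower (13.4-fold without 48Q replicate 1). Fgfr1, whose exons overlap another gene, was at 5.07 and 8.98 CPM in 12Q and 54.3 and 30.7 in 48Q, and Egf is given above.

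The 1 higher gene of the EGF and FGF list was Spry1, an inhibitor of receptor signalling at 51.2 and 48.4 CPM against 23.2 and 21.4, chosen after its values were seen. Of 38 genes of BMP and TGF-β signalling, 5 were lower and 1 higher, with a median log2 fold change of -0.19 (-0.36 with library totals). Nog, the BMP antagonist noggin, was at 0.111 and 0.217 CPM in 12Q and 4.37 and 3.34 in 48Q (-4.50 ± 0.66 (SE), edgeR adjusted p = 0.0277). Chrdl1, another BMP antagonist, had 1 count in 12Q against 20.5 and 11.8 CPM in 48Q, a ratio of 0.00105 (2.66e-05 to 0.00587). Ltbp1, which holds latent TGF-β, was at 0.148 and 0.0928 CPM in 12Q and 16.8 and 8.73 in 48Q (edgeR adjusted p = 0.0229). These 3 regulators were under 1 CPM in both 12Q libraries. Fstl1 fell by 1.86 on the log2 scale, Id4, a target of BMP signalling, by 3.55, and Tgfb1, a ligand, rose to 80.6 and 94.6 CPM from 32.9 and 40.4. Id4 and Tgfb1 were chosen after their values were seen. Of 46 axon guidance genes, 7 were lower and 2 higher, beside 3.16% and 1.01% over all genes tested, and 23 lay above 0. Their median log2 fold change was 0.08 (-0.48 without 12Q replicate 2 and -0.12 with library totals). Slit2, a secreted repellent, had no count in 12Q against 5.09 and 4.71 CPM in 48Q, at least 48.0-fold lower. Robo2, a Slit receptor, had 1 count in 12Q against 4.03 and 3.56 CPM in 48Q, a ratio of 0.00444 (0.000112 to 0.0250). Sema3d, a semaphorin, had 1 count in 12Q, a ratio of 0.00681 (0.000171 to 0.0385), and Epha7, an ephrin receptor, had none, at least 25-fold lower. Epha2, a receptor at 78.2 and 56.9 CPM against 13.3 and 13.0, and Efnb2, a ligand at 205 and 187 CPM against 83.6 and 75.5, were the 2 higher genes and were chosen after their values were seen.

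Removing libraries changed these calls as well. The 4 IGF calls were 2 without each of the 4 tumor libraries. The 5 EGF and FGF calls were 0 without 12Q replicate 1, 12Q replicate 2 or 48Q replicate 1 and 2 without 48Q replicate 2, and the 9 guidance calls were 0 in all 4 fits. The 6 BMP and TGF-β calls were 1, 1, 1 and 2 in the same order. Fibroblasts make several of these ligands and binding proteins, and the part of the lower fibroblast sum in these values was not tested. With library totals Pappa, Fgfr1, Spry1, Tgfb1, Id4 and Epha2 did not pass (edgeR adjusted p from 0.0511 to 0.0673). Exons of Spry1 and Id4 overlap other genes. In the Notch pathway, 0 of 20 genes passed in edgeR (6 at an unadjusted p under 0.05, and 1 higher and 2 lower by DESeq2), with a median log2 fold change of 0.06 (-0.13 with library totals). There Notch1, a receptor whose exons overlap another gene, was at 74.5 and 115 CPM in 12Q and 246 and 231 in 48Q (edgeR adjusted p = 0.0591). Over all genes tested, 4.17% passed, and the Hedgehog count below is near that share. In the Hedgehog pathway, 1 of 19 passed, Gas1, a co-receptor at 2.33 and 1.92 CPM against 23.9 and 15.2 whose exons overlap another gene (edgeR adjusted p = 0.0497, and not called without any 1 tumor library).

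**Figure D5:**
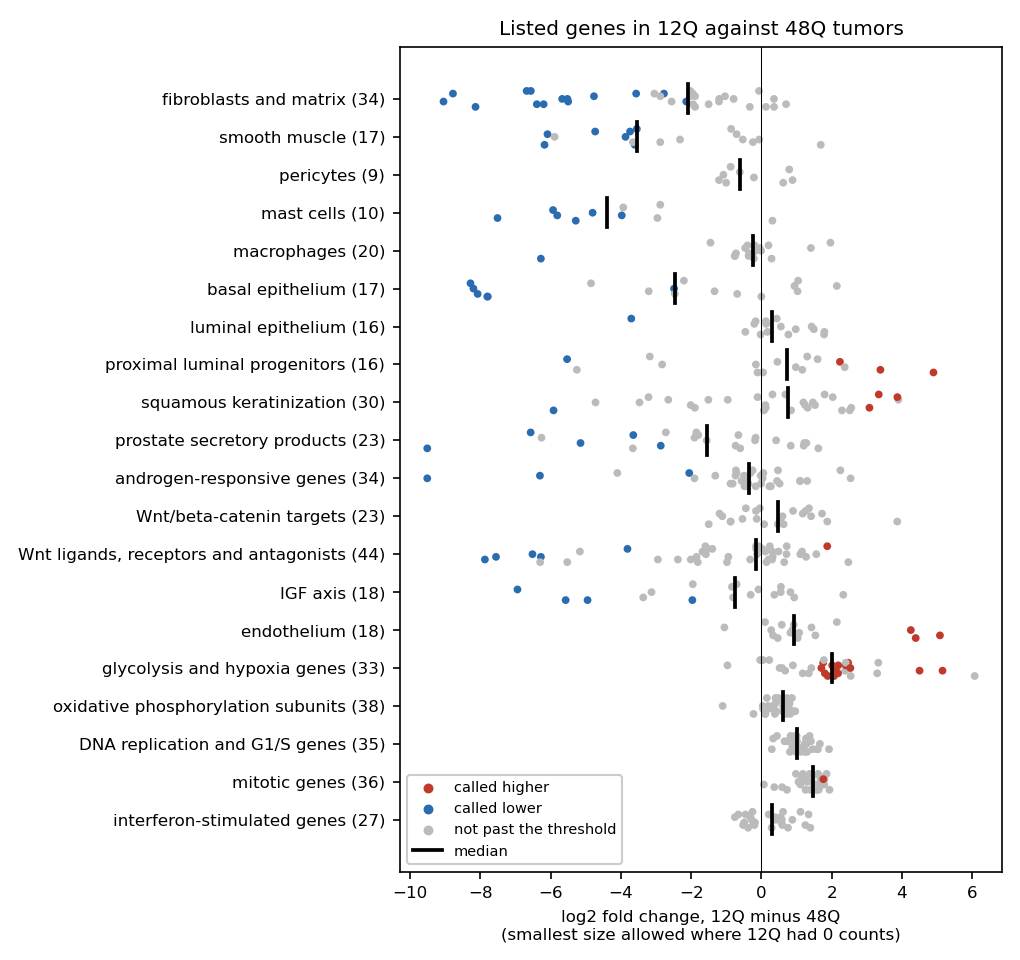
Each point is 1 tested gene of a list (number tested in brackets), placed by its log2 fold change of 12Q against 48Q tumors, with genes without a 12Q count at the smallest size that 3 counts allow, and a black bar marks the list's median. Blue points (called lower) gather in the stromal, mast cell and basal lists. Red points (called higher) number 14 in the glycolysis list. The endothelial, proximal luminal progenitor, squamous and mitotic lists have 3 each, and the cell cycle lists lie above 0 with few calls.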

How the data were processed

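RNA was sequenced in 2 libraries of 12Q tumor, 2 of 48Q tumor and 2 of WT prostate. The values the authors deposited are raw counts of reads per gene, and the submitters' processing notes name TopHat2 2.0.14, HTSeq 0.6.0 and the mm10 build. The annotation, the strand setting and the handling of reads with several matches were not given in the sources used here. Genes whose exons overlap another gene are therefore uncertain. Columns were assigned to samples by their names. The gene that carries the humanised allele and a few genes that the rule below would name are not reported here.

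Low genes were removed with filterByExpr at a minimum count of 10 and a minimum total of 15, and the rest were scaled by TMM and fitted with edgeR 4.0.16's quasi-likelihood test in R 4.3.3. All 6 libraries entered 1 fit of 3 groups, with the contrast 12Q minus 48Q and Benjamini-Hochberg adjustment at 0.05. Named genes were Ctnnb1, the 12 largest increases and 12 largest decreases among called genes without overlap between groups, with at least 10 CPM in the higher group and no predicted names. For the lists described, up to 4 called genes with the smallest adjusted p were added, or the 2 highest where none passed. The members and lists were chosen with earlier results of these data known. On simulated counts for this comparison (14835 genes), 1.5% of 66 genes set to a log2 change of 1 were recovered. The shares were 38.8% of 67 set to 2 and 100% of 67 set to 4, with 2 false calls. Every simulated gene had the same spread between libraries beyond counting error, and changes were set only in genes with counts well above the filter. The real 12Q libraries stood further apart than the 48Q libraries, and many lower calls had few counts. These rates need not hold for the real libraries. Other settings were other scalings and filters, DESeq2 1.42.0, limma 3.58.1 (voom), the tumor libraries alone, a replicate block, and each library left out. The labels do not say that replicate numbers pair the samples, and the fit as reported did not pair them. Promoter windows and motif matches came from RefSeq.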

Additional observations from a re-analysis of the deposited data

How the results depend on the processing

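Of the 627 genes called, none changed sign in any setting, but the number of calls depended on the test and on each tumor library. Calls numbered 2481 by DESeq2's Wald test (920 higher, 1561 lower) and 1101 by limma-voom (322 and 779). Higher calls numbered 62 with library totals and 289 with the tumor libraries alone. Leaving out 1 library gave 47 to 866 calls, with 1 to 240 higher and 46 to 626 lower; the fewest came without 48Q replicate 1 and the most without WT replicate 1. The cause of these shifts was not tested, except that each such fit has fewer libraries.

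With the replicate block, 605 genes passed (144 higher, 461 lower). The labels do not say that same-numbered libraries belong together. Deviations of same-numbered libraries correlated at 0.025 between 12Q and 48Q, 0.13 between 12Q and WT and -0.10 between 48Q and WT. With 2 libraries a group, these values do not tell whether the numbers pair the libraries.

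Of 145 called genes named, 20 passed without each tumor library in turn, 72 in none of those 4 fits, and 96 in all 9 other settings. Signs turned in 6 genes that did not pass. Without 1 library each, log2 fold changes ranged from -0.11 to 0.061 for Ctnnb1 (0.051 without 12Q replicate 1), -0.31 to 0.42 for Axin2 (and -0.090 with library totals), -1.18 to 0.23 for Col1a1, -3.81 to 0.77 for Tgm4 (0.02 without 48Q replicate 1), -1.68 to 7.10 for Car9 and -1.08 to 1.37 for Gapdh. With 2 libraries a group, changes of 2-fold were rarely recovered in simulated counts, so a gene that did not pass may still differ.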

Other observations

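Smaller groups of genes were called as well. Over all genes tested, 1.01% were called higher and 3.16% lower. Of 17 immediate early genes, 2 were higher in 12Q and 0 lower: Ier3 rose to 164 and 167 CPM from 39.6 and 47.2 (edgeR adjusted p = 0.0216) and Ier2 to 66.9 and 58.1 from 28.9 and 28.7 (edgeR adjusted p = 0.0494). Mthfd1l, a mitochondrial enzyme of one-carbon metabolism, rose to 56.6 and 60.2 CPM from 13.9 and 15.7 (edgeR adjusted p = 0.0289). In these genes both 12Q libraries lay apart from both 48Q libraries. None of the 3 calls held without any 1 of the 4 tumor libraries.

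Of 20 serpins and kallikreins, 3 were lower in 12Q and 0 higher, beside 3.16% lower over all genes tested. Of the 20, 12 lay above 0. Their median log2 fold change was 0.17 (-0.42 without 12Q replicate 2 and -0.02 with library totals). Serping1, an inhibitor of complement, was at 4.44 and 14.4 CPM in 12Q and 130.3 and 125 in 48Q (edgeR adjusted p = 0.0277), and Serpinf1, an inhibitor of vessel growth, at 0.962 and 1.02 CPM against 30.5 and 24.2 (edgeR adjusted p = 0.0181). The third was Serpina3n. Pnliprp1, a lipase-related protein chosen after its values were seen, was at 20.5 and 8.29 CPM in 12Q, 1472 and 978 in 48Q, with 1459 and 1684 in WT, and passed without each tumor library in turn. Of 15 factors of epithelial-mesenchymal transition, 2 were lower: Prrx1 at 2.48 and 3.84 against 35.2 and 23.1 CPM, and Twist2, whose exons overlap another gene, at 0.111 and 0.124 against 3.49 and 2.31 CPM. Neither passed without any 1 tumor library. Both are also made by fibroblasts, and the part of the lower fibroblast sum in these values was not tested. Of 29 matrix proteases and inhibitors, 17 lay above 0, with a median log2 fold change of 0.31 (-0.40 without 12Q replicate 2). Their summed level was 10686 and 6152 CPM in 12Q and 3988 and 4159 in 48Q. In this list 0 genes were called higher and 2 lower: Adamts5 fell by 4.60 and Adamts1 by 1.89 on the log2 scale. Each passed in 1 of the 4 fits without a tumor library.

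Single members of other lists were lower in 12Q than in 48Q. Of 10 Paneth-cell-like genes tested 3 were lower, namely Pla2g2a, Reg3g and Defa24, and 0 higher, beside 3.16% lower over all genes tested. Of the 10, 4 lay above 0, up to 2.46, and 3 of them without overlap between groups. Such separation was found in 66.8% of all genes tested, counting both directions. The median log2 fold change of the 10 was -2.41. The summed level of the 13 listed genes was 9090 and 4174 CPM in 12Q and 3246 and 3234 in 48Q, so the sum was higher in 12Q. Pla2g2a and Defa24 were also low in WT (0.0522 and 0.0442 CPM, and 0 and 0). Reg3g, an antimicrobial lectin, had no count in 12Q against 7.83 and 1.68 CPM in 48Q, at least 46.7-fold lower (16.5-fold without 48Q replicate 1), and Defa24, a defensin, was at 0 and 0.124 CPM against 11.4 and 6.50. Slc1a3, a glutamate transporter related to Slc1a2, was at 0.0740 and 0.0928 CPM in 12Q and 3.70 and 2.45 in 48Q (edgeR adjusted p = 0.0390). Mt4, a metallothionein, had 2 counts in 12Q, a ratio of 0.00899 (0.00108 to 0.0328). Nqo1, a quinone reductase, was at 0.111 and 0.0619 CPM in 12Q and 1.99 and 1.17 in 48Q. Sult1e1, an estrogen sulfotransferase, had no count in 12Q against 5.42 and 1.68 CPM in 48Q, at least 34.8-fold lower (16.5-fold without 48Q replicate 1). Cldn6, a claudin, had none against 0.512 and 0.913 CPM, at least 6.99-fold lower. With library totals Slc1a3, Mt4, Defa24, Nqo1 and Cldn6 did not pass, and with the tumor libraries alone Reg3g, Sult1e1 and Cldn6 did not. Of these 7 genes besides Pla2g2a, Reg3g and Sult1e1 each passed in 1 of the 4 fits without a tumor library and the other 5 in none.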
